A study of Mus musculus with 2 samples.

Results

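Hand2os1, Dlx6os1, Dlx1as, Sox2ot, Six3os1 and Emx2os are 6 long non-coding RNA genes of the mouse, each of which lies beside or across a gene for a developmental transcription factor: Hand2, Dlx6, Dlx1, Sox2, Six3 and Emx2. They were chosen by name, with their levels and differences in these 2 libraries already known, out of 6853 long non-coding genes and 43346 gene rows. Of the 6, 5 had a row in both gene tables. Sox2ot had none under its present identifier, and its level is not analysed here. Their RNA was measured in 2 libraries of 1 group, made from facial prominences, the swellings that form the jaws, nose and palate, at embryonic day 13.5. The labels name the strain B6NCrl, pooled male and female embryos, no mutation and no treatment. They give separate biosamples for biological replicates 1 and 2 and 1 shared donor. With no second condition there was no contrast to test, no p-value is given, and the spread between the 2 libraries covers biosample and library preparation together.

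Long non-coding genes beside developmental factors are often transcribed away from the factor's promoter or across its gene in antisense, and many are active in the same tissues as the factor. Hand2 is a basic helix-loop-helix factor needed in the lower jaw, heart and limb. Dlx1 and Dlx6 are homeodomain factors of the jaw arches and the ventral forebrain, where the Dlx6os1 transcript Evf2 was described as a regulator of its neighbours. Sox2 maintains neural, sensory and epithelial progenitors. Six3 is needed for the forebrain and eye, and Emx2 for the cortex, urogenital tract and limb girdle.

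The pairs differ in how the genes face each other, and the start regions show this. RefSeq's promoter table for GRCm38.p6 held 8 of the 12 genes and 3 of the 6 long non-coding ones (Hand2os1, Dlx6os1 and Six3os1), each as 250 bases before and 50 after a transcript start. The Hand2 window is shown because Hand2os1 starts inside it on the other strand. Capitals mark the 123 bases between the Hand2os1 start at 57320859 and the Hand2 start at 57320983. The 2 Dlx6os1 windows are shown because they are the AT-rich ones, and their capitals mark the letters TAATTA, a core that many homeodomain proteins can bind.
Hand2 window, chr8:57320733-57321032, plus strand: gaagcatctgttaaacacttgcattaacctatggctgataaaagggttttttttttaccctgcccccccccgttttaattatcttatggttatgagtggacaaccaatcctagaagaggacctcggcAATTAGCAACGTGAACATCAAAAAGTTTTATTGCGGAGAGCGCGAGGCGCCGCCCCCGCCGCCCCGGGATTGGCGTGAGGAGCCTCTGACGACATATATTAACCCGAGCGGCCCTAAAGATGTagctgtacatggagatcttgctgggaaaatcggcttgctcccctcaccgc
Dlx6os1 window 1, chr6:6869484-6869783, minus strand: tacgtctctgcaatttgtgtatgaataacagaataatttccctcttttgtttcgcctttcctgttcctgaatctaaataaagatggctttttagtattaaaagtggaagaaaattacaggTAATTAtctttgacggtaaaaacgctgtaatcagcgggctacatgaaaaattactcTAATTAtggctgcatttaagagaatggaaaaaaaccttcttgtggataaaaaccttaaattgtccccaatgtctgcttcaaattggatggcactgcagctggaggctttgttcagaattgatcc
Dlx6os1 window 2, chr6:6861634-6861933, minus strand: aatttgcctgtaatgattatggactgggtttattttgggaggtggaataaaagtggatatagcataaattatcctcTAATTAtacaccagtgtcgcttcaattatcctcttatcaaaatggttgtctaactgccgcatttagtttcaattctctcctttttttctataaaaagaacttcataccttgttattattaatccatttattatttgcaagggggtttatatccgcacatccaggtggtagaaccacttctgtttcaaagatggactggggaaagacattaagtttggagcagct
Dlx6os1 windows had a GC content of 35.7% and 35.3%, against a median of 52.7% over 32851 promoter windows of the same length. Hand2os1 had 57.3% and Six3os1 63.0%. The observed-over-expected CpG ratio was 0.938 at Hand2os1 and 0.675 at Six3os1, and 0.525 and 0.321 in the Dlx6os1 windows, where the median window had 0.384. TAATTA, which reads the same on both strands, occurred 2 times in the first Dlx6os1 window, 1 time in the second, and 1 time each at Hand2 and Emx2. It was in 5.29% of all windows. CCAAT, searched on both strands, was in the Hand2os1 and Six3os1 windows and the first Dlx6os1 window, and in 37.4% of all windows. TATAAA, also searched on both strands, was among the long non-coding genes only in the second Dlx6os1 window, and in 13.6% of all windows. No match of one of these motifs overlapped a match of another, and a match is a description of the letters and not a bound site.

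The spliced ends of the leading transcripts are given next, because such a junction belongs to the spliced RNA of the long non-coding gene. Each line holds the last 25 bases of the first exon in lower case and the first 25 of the second exon in capitals. The bases come from the GENCODE M21 transcript sequences (GRCm38), which here follow the minus strand.
Hand2os1-206: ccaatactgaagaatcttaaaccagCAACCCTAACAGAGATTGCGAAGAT
Dlx6os1-202: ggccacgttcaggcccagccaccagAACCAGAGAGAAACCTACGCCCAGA
Dlx1as-202: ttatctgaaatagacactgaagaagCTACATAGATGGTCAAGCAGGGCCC
Six3os1-201: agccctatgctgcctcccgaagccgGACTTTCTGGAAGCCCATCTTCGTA
Emx2os-201: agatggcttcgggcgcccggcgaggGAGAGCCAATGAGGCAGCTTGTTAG
The intron removed here spans 400 bases in Hand2os1-206, 36957 in Dlx6os1-202, 4461 in Dlx1as-202, 2313 in Six3os1-201 and 25068 in Emx2os-201.

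All 5 measured long non-coding genes lie on the minus strand and their neighbours on the plus strand. Hand2os1 (ENSMUSG00000100510, chr8:57281117-57324233 in GENCODE M21 on GRCm38) had 8 transcripts in the deposited tables, between 57304264 and 57320830. They are transcribed away from Hand2 (ENSMUSG00000038193, chr8:57320983-57324633), lie 152 bases from it and share no exonic base with it. GENCODE M21 lists 37 Hand2os1 transcripts, some of which reach across Hand2. Dlx6os1 (ENSMUSG00000090063, chr6:6820189-6871592) spans the whole of Dlx6 (ENSMUSG00000029754, chr6:6863334-6868568), which lies between its exons with 0 shared exonic bases. Of its deposited transcripts, Dlx6os1-201 crosses Dlx6, and Dlx6os1-202 (6820189 to 6861591) does not reach it. Dlx1as (ENSMUSG00000084946, chr2:71516454-71537891) spans Dlx1 (ENSMUSG00000041911, chr2:71528113-71533981), and 335 of its exonic bases, 20.6% of them, lie in Dlx1 exons. The deposited transcript that crosses all of Dlx1, Dlx1as-204, had 0 counts in both libraries. Dlx1as-201 and Dlx1as-203 do not reach Dlx1, and Dlx1as-202 meets its right end. Six3os1 (ENSMUSG00000093460, chr17:85600651-85618398) shares 106 exonic bases (0.892% of its own) with Six3 (ENSMUSG00000038805, chr17:85613608-85629302). Emx2os (ENSMUSG00000087095, chr19:59425104-59458635) and Emx2 (ENSMUSG00000043969, chr19:59458372-59465357) overlap head to head, with 264 shared exonic bases, 5.26% of those of Emx2os. Sox2ot (ENSMUSG00000105265, chr3:34104270-34682619) runs on the same strand as Sox2 (ENSMUSG00000074637, chr3:34650405-34652461), which lies inside it. The sources used here do not say if the libraries keep strand. Reads in exons shared by opposite strands could count for either gene in the Dlx1, Six3 and Emx2 pairs.

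**Figure D1:**
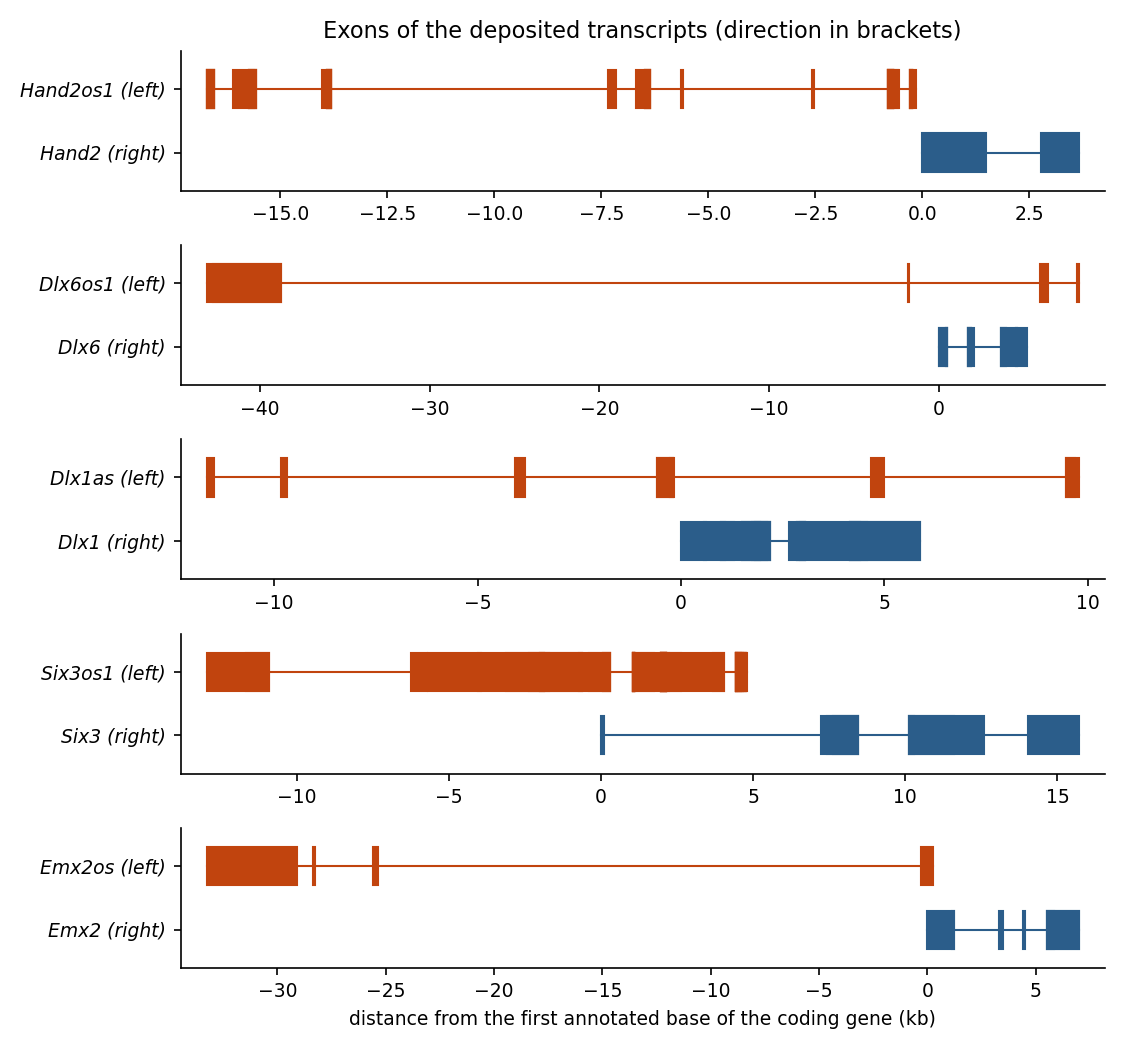
Exons (boxes) of all deposited transcripts of each pair, with distance in kb from the first annotated base of the coding gene on the x axis, long non-coding genes in orange and coding genes in blue. The deposited Hand2os1 transcripts lie to the left of Hand2 and run away from it. The annotated spans of Dlx6os1 and Dlx1as cover their neighbours. Dlx6os1-202 does not reach Dlx6, and Dlx1as-204, which crosses all of Dlx1, had 0 counts in both libraries. Six3os1 and Emx2os overlap the first exon of their neighbours.

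Hand2os1 had the highest level of the 5 long non-coding genes in both libraries. Levels are in TPM, a transcript's share of all RNA scaled to a fixed library total, which corrects for transcript length, and brackets below hold the 95% credibility interval of the authors' deposited tables. Replicate 1 had 69.4 TPM (62.9 to 73.0) from 798 expected counts, and replicate 2 had 20.6 TPM (17.3 to 23.7) from 174. The mean was 45.0 ± 34.5 TPM (SD, n = 2), with replicate 1 high and replicate 2 low and their intervals far apart. By mean TPM it ranked 37 of 6853 long non-coding genes. Hand2 had 6.56 TPM (5.60 to 7.17) in replicate 1 and 2.29 TPM (1.69 to 2.69) in replicate 2, from 296 and 78.9 expected counts. Its mean was 4.42 ± 3.02 TPM (SD, n = 2). So both genes of this pair were high in replicate 1 and low in replicate 2. Hand2os1 stood above Hand2 in both, at 10.6 times its TPM in replicate 1 and 8.99 times in replicate 2.

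Dlx6os1 had 2.44 TPM (2.09 to 2.72) in replicate 1 and 3.53 TPM (2.99 to 3.86) in replicate 2, from 220 and 244 expected counts. The mean was 2.98 ± 0.77 TPM (SD, n = 2), the lowest of the 5, and replicate 2 was the higher. Dlx6 had 3.79 TPM (2.91 to 5.33) and 3.54 TPM (2.55 to 5.37), from 91 and 67 expected counts. Dlx6os1 was therefore below Dlx6 with intervals apart in replicate 1, and level with it in replicate 2, where the intervals overlapped. Dlx1as had 3.14 TPM (2.21 to 5.02) and 3.26 TPM (2.33 to 5.43), from only 37.3 and 29.9 expected counts. These wide intervals overlapped over most of their length. Dlx1 had 11.3 TPM (10.0 to 13.6) and 14.0 TPM (11.98 to 16.2), from 549 and 486 expected counts, above Dlx1as with intervals apart in both libraries.

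Six3os1 had 7.35 TPM (7.02 to 9.40) in replicate 1 and 13.3 TPM (12.3 to 15.8) in replicate 2, from 439 and 589 expected counts. Replicate 2 was the higher and the intervals did not overlap, with a mean of 10.3 ± 4.18 TPM (SD, n = 2), the second highest of the 5. Six3 had 3.37 TPM (2.83 to 3.85) and 6.39 TPM (5.41 to 6.98), again higher in replicate 2. Six3os1 stood above Six3 in both libraries with intervals apart. Emx2os had 3.93 TPM (3.46 to 4.20) and 5.17 TPM (4.52 to 5.48), from 409 and 410 expected counts, and a mean of 4.55 ± 0.88 TPM (SD, n = 2). Emx2 had 17.9 TPM (16.2 to 19.5) and 19.1 TPM (17.1 to 20.8), the highest of the 6 coding neighbours, and lay above Emx2os with intervals apart in both libraries. Sox2, whose non-coding partner could not be measured, had 2.63 TPM (2.14 to 3.02) and 4.92 TPM (4.11 to 5.48). One Sox2ot transcript of 67 bases, Sox2ot-201, was in the transcript tables under another gene identifier with an effective length of 0 and 0 counts, which says nothing of the gene.

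**Figure D2:**
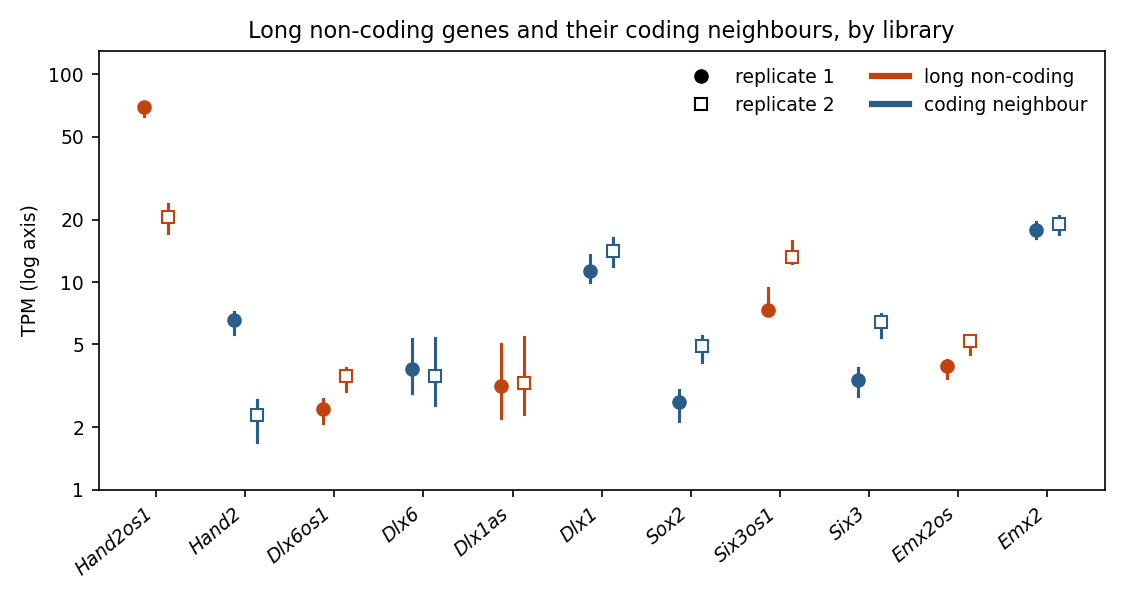
TPM on a log axis of each long non-coding gene (orange) and coding neighbour (blue) in replicate 1 (filled circles) and replicate 2 (open squares), with lines for the authors' 95% credibility intervals. Hand2os1 is the highest in both libraries, at 69.4 and 20.6 TPM, and the points of Dlx6os1, Dlx6 and Dlx1as sit between 2.44 and 3.79.

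The order of the means was Hand2os1, Six3os1, Emx2os, Dlx1as and Dlx6os1. In each library the intervals of Hand2os1, Six3os1, Emx2os and Dlx6os1 did not overlap one another, and the wide interval of Dlx1as overlapped those of Emx2os and Dlx6os1. All 5 reached 1 TPM in both libraries, as did 14.0% of long non-coding genes (959 of 6853). The genes were chosen with these levels known, so that count is a description. Their ranks by mean TPM after Hand2os1 were 148 for Six3os1, 290 for Emx2os, 417 for Dlx1as and 450 for Dlx6os1.

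Within pairs, 3 of 5 long non-coding genes were below their neighbour in both libraries (Dlx6os1, Dlx1as and Emx2os). For Dlx6os1 this rests on 0.01 TPM in replicate 2, where the intervals overlapped, and with FPKM (2.40 for both genes there) the count was 2 of 5. Among all 829 pairs of a protein-coding gene and a long non-coding gene within 5 kb that reached 1 TPM in each library, 80.7% (669) had the long non-coding gene lower in both. The other 2 of 5, Hand2os1 and Six3os1, were above theirs in both, against 16.2% (134) of the pairs. The mean log2 ratio of TPM, long non-coding over coding, was 3.29 ± 0.17 for Hand2os1, 1.09 ± 0.05 for Six3os1, -0.32 ± 0.45 for Dlx6os1, -1.98 ± 0.18 for Dlx1as and -2.03 ± 0.22 for Emx2os (SD, n = 2). For Hand2os1 and Six3os1 the ratio thus varied little between libraries while the level of both genes of the pair differed between them. The median of the 5 was -0.32, and that of the 829 pairs was -2.77. For the 829 pairs the ratio was taken of the mean TPM of the 2 libraries, and not as a mean of 2 log2 ratios. By that measure the ratio of Hand2os1 was exceeded by 4.83% of the pairs. These ratios rest on length: without dividing counts by length the Hand2os1 value was 1.28, since its deposited transcripts are 486 to 877 bases long and that of Hand2 is 2235. On the same count scale Dlx6os1 stood above Dlx6, at 1.57.

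**Figure D3:**
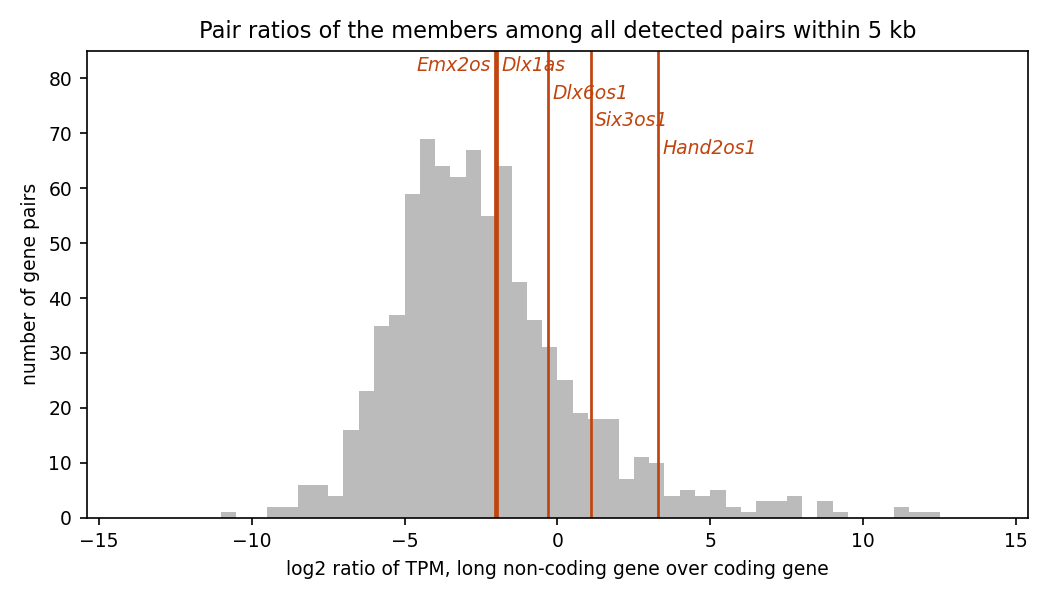
Number of gene pairs (y axis) by log2 ratio of mean TPM, long non-coding over coding (x axis), over 829 pairs in grey. Orange lines stand at the mean of the 2 libraries' log2 ratios for each of the 5 pairs described. Coding means under 0.01 TPM were set to 0.01 (12 pairs), and the lines of Emx2os and Dlx1as fall nearly together at -2.03 and -1.98.

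Counting only transcripts without an exonic base in the partner gene left 4 pairs. Hand2os1, which shares none, had 69.4 and 20.6 TPM. Six3os1 transcripts of this kind had 5.33 TPM in replicate 1 and 9.38 in replicate 2, against 0.42 and 0.94 for Six3, a log2 ratio of 3.49. This larger ratio follows the loss of Six3-202, which has 106 of its 2419 bases in Six3os1 exons and held 87.5% and 85.3% of the TPM of Six3. Dlx1as had 0.96 and 2.02 TPM, against 4.93 and 6.60 for Dlx1, and remained the lower. Dlx6os1 stood at 2.44 and 3.54 TPM beside 3.78 and 3.53 for Dlx6, so that in replicate 2 the order of this pair turned on 0.01 TPM. Thus 1 of 4 pairs, Dlx1as, had the long non-coding gene lower in both libraries. For Emx2os no transcript was left, because its only one crosses the first exon of Emx2.

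Between the 2 libraries, Hand2os1 was the only one of the 5 past 2-fold, and with libraries scaled by spike-in counts Six3os1 passed as well, at a log2 ratio of 1.27. Differences here are log2 ratios of replicate 2 over replicate 1 from expected counts scaled by TMM, a scaling on the bulk of genes, with exact Clopper-Pearson 95% intervals that cover counting error only. Hand2os1 had -1.88 (-2.13 to -1.64), which is 3.68-fold higher in replicate 1 (3.13 to 4.37). Hand2 had -1.58 (-1.97 to -1.23), or 2.99-fold higher in replicate 1 (2.34 to 3.91), and the intervals of the 2 genes overlapped. Of genes whose expected counts averaged at least 10, 6.3% (1116 of 17707) were past 2-fold in either direction, and of long non-coding genes 7.05% (119 of 1687). By size of difference Hand2os1 ranked 17 of these 1687, Six3os1 250, Dlx6os1 529, Emx2os 757 and Dlx1as 1653.

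The other pairs lay on the other side of 0 or near it. Six3os1 had 0.74 (0.56 to 0.92) and Six3 0.84 (0.56 to 1.13), 1.67-fold and 1.79-fold higher in replicate 2. Sox2 was close to them at 0.82 (0.50 to 1.16). Dlx6os1 had 0.46 (0.19 to 0.73) while Dlx6 had -0.13 (-0.60 to 0.34), an interval that includes 0. The intervals of the pair overlap, but overlap does not decide if the 2 genes differ, and that difference was not tested. Emx2os had 0.32 (0.12 to 0.52) and Emx2 0.10 (-0.07 to 0.26). For Dlx1as, at 0.01 (-0.73 to 0.75), a difference under about that width was not detectable at this depth, and Dlx1 had 0.14 (-0.04 to 0.32). The sign of Dlx1as, whose value is near 0, was negative with DESeq2 size factors, and that of Dlx6 was positive when libraries were scaled by spike-in counts, which moved the median of all genes from 0.01 to 0.54.

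**Figure D4:**
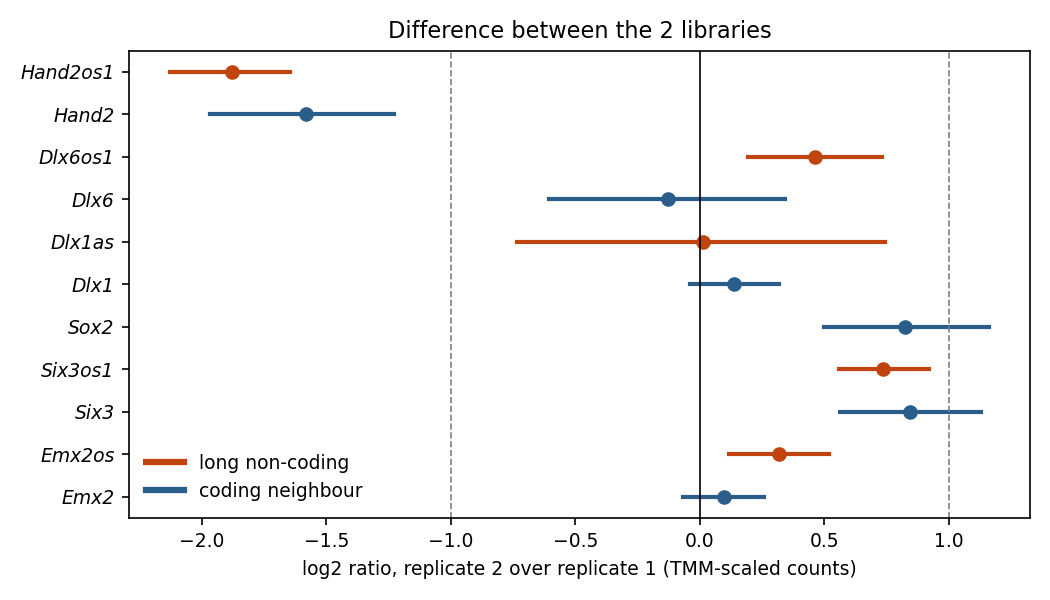
Log2 ratio of replicate 2 over replicate 1 (x axis, TMM-scaled counts) for each gene, with lines for the exact 95% interval of the counts and dashed lines at 2-fold. Hand2os1 and Hand2 lie beyond the dashed line on the side of replicate 1, at -1.88 and -1.58, and Six3os1, Six3 and Sox2 lie between 0.74 and 0.84 with intervals above 0.

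With TMM, both genes of 4 of 5 pairs lay on the same side of 0, the Dlx1as pair among them with a value near 0, as did 53.3% (751 of 1408) of pairs within 5 kb whose genes both had a mean count of 10 or more. The count was 3 of 5 with DESeq2 size factors and 5 of 5 with spike-in counts, where the share of all pairs was 53.3% and 87.2%. Both genes were past 2-fold in the same direction in 1 of 5 pairs, Hand2os1 and Hand2, and in 0.213% (3 of 1408) of all pairs. The other 2 such pairs, named after their values were seen, were Lhx1os with Lhx1 (-2.91 and -3.54) and Gm28760 with Pitx1 (-1.41 and -1.19). Lhx1os rested on only 26 and 2 expected counts, with an interval of -6.51 to -1.39. All 3 were lower in replicate 2. With spike-in counts the Six3os1 pair passed too, on the side of replicate 2, which made 2 of 5 pairs against 1.21% (17 of 1408). These pair counts under other scalings were added after the data were seen. The median absolute log2 difference was 0.46 over the 5 long non-coding genes, 0.29 over all long non-coding genes and 0.15 over all genes.

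Markers of cell types that use these factors were measured beside them. In bulk RNA, fewer cells of a type and less RNA per cell cannot be told apart. Of 8 heart markers, 7 were past 2-fold higher in replicate 2 and 1 (Tbx5) lower, and their summed level was 12.6 TPM in replicate 1 and 55.0 in replicate 2. This is opposite in direction to Hand2os1 and Hand2, and 1 of the 8 markers (Tnnt2) reached 1 TPM in both libraries. Sympathetic and autonomic neuron markers summed to 19.9 and 31.7 TPM, of which Gata3 gave 16.3 and 22.9. All 8 were higher in replicate 2, with a median log2 ratio of 0.64, again opposite to Hand2os1 and Hand2. Of these, 3 of 8 reached 1 TPM in both libraries. Jaw mesenchyme markers, all 8 of them detected, summed to 771 and 702 TPM, 7 of 8 lower in replicate 2 with a median log2 ratio of -0.22, a much smaller size than that of Hand2os1. The heart-and-jaw factor Hand1, the closest relative of Hand2, had 3.80 TPM in replicate 1 and 1.03 in replicate 2 (log2 -1.98), on the same side as Hand2. The part of these cell types in the Hand2os1 difference was not tested.

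For the Six3, Sox2, Emx2 and Dlx pairs most marker lists had the higher sum in replicate 2. Olfactory epithelium markers summed to 112 and 144 TPM, with all 8 higher in replicate 2 and 5 of 8 at 1 TPM or more in both. Markers of retina and optic cup summed to 10.7 and 18.5 TPM (3 of 7 detected in both, Atoh7 at 0 in both), and those of dorsal telencephalon to 10.7 and 19.4 TPM (2 of 7). Lhx2 and Pax6 stand in both of those lists, and Lhx2 in the olfactory one as well, with 7.52 and 13.7 TPM in the 2 libraries. Ventral forebrain interneuron markers, the cells where Dlx6os1 and Dlx1as are best known, summed to 15.9 and 18.6 TPM, of which Lhx6, also a jaw gene, gave 10.3 and 10.6. Slc32a1, the transporter that loads GABA into vesicles, had 0.00 and 0.02 TPM. Pituitary and hypothalamus markers summed to 3.50 and 2.54 TPM (1 of 7), and surface epithelium markers to 1100 and 1073 TPM (8 of 8). The surface epithelium list had 4 markers higher and 4 lower in replicate 2, with a median log2 ratio of 0.06. Most of its sum was Krt5 and Krt14, both lower in replicate 2. The simple-epithelium keratin Krt8 had 31.6 and 72.2 TPM (log2 1.11), Krt18 27.8 and 46.5, and the epithelial adhesion gene Epcam 64.2 and 100.7. These lay on the side of Six3os1 and Sox2, and Cdh1 less so (log2 0.18). Trp63 and Esrp1 were slightly lower in replicate 2, at -0.06 and -0.08. The pituitary sum was mostly Pomc (3.28 and 2.12 TPM), and by log2 ratio 4 of that list were higher and 2 lower in replicate 2. The part of these cell types in the levels of the 5 genes was not tested.

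The transcripts behind the levels were shared similarly in both libraries for 3 of the 4 genes with several. Hand2os1 was spread over many: Hand2os1-206 led with 24.6% of the gene's TPM in replicate 1 and 25.7% in replicate 2, followed by Hand2os1-203 with 19.8% and 24.1%. Hand2os1-204 held 17.2% and 13.4%, Hand2os1-210 15.4% and 13.3%, and Hand2os1-209 7.06% and 11.3%. Each of these 5 transcripts had less TPM in replicate 2 than in replicate 1. Dlx6os1-202 held 58.2% and 66.1%, and Dlx6os1-201 the rest. Six3os1-201 led with 31.0% and 28.7%, before Six3os1-209 (22.2% and 23.6%), Six3os1-206 (18.5% and 16.1%) and Six3os1-212 (13.3% and 13.3%). Dlx1as was the exception: Dlx1as-202, whose second exon lies in Dlx1, led replicate 1 with 69.4% and had 37.9% in replicate 2, where Dlx1as-203 led with 42.8% after 26.1% in replicate 1. Dlx1as-201 had 4.46% and 19.4%. The change of leader rests on the 37.3 and 29.9 expected counts given above. Emx2os had the single transcript Emx2os-201.

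**Figure D5:**
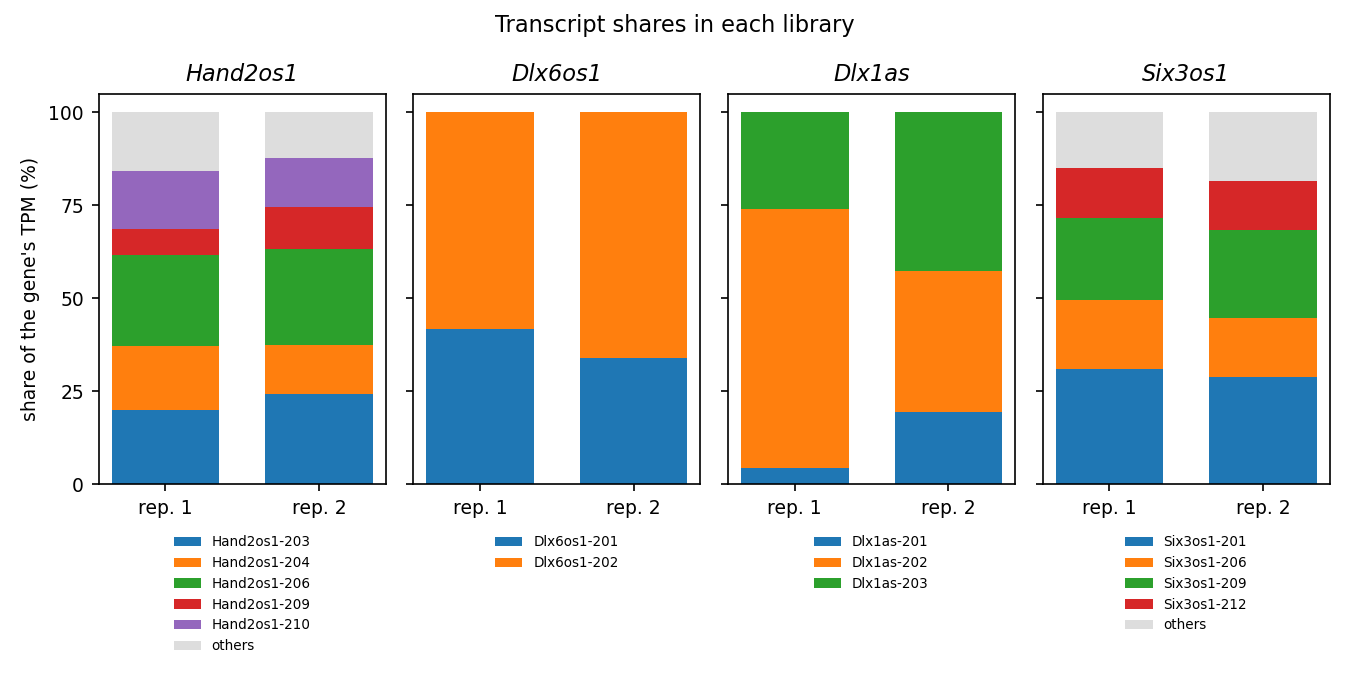
Share of each gene's TPM (y axis, percent) held by its transcripts in replicate 1 and replicate 2, with transcripts of 10% or more in either library in colour and the rest in grey. The leading transcript is the same in both libraries for Hand2os1, Dlx6os1 and Six3os1, and differs for Dlx1as (69.4% and 37.9% for Dlx1as-202).

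Few other genes at these loci were detected. Beside Hand2os1, the long intergenic non-coding gene 5033428I22Rik, 7885 bases away, had 1.68 TPM in replicate 1 and 0.83 in replicate 2 (log2 -1.07), on the same side as Hand2os1 and Hand2. Dlx5, the partner of Dlx6 6213 bases from Dlx6os1, had 40.8 and 33.9 TPM, and Dlx2, 5517 bases from Dlx1as, had 7.49 and 5.99 TPM. Dlx5 was the highest of the measured Dlx genes. The enzyme gene Metap1d, a methionine aminopeptidase that overlaps Dlx1as, had 39.0 and 40.2 TPM (log2 -0.0048). It lies on the plus strand. Exonic bases that it may share with Dlx1as were not counted, so reads of Metap1d could also count for Dlx1as. A misc_RNA row of 146 bases that also carries the name Dlx6os1 had 1 count in each library, and the misc_RNA RF01953 inside Sox2ot had 1.91 and 0.72 TPM from 7 and 2 counts. A few reads on features this short give a high TPM.

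Of 14 coding relatives of the neighbours, 10 reached 1 TPM in each library. Of the sine oculis homeobox relatives, Six2 had 16.4 TPM in both, Six4 4.92 and 5.52, and Six5 11.5 and 11.3. Six2 acts in cranial mesenchyme. These 3 had nearly the same TPM in both libraries, where Six3 was higher in replicate 2. Dlx3 had 23.1 and 16.5 TPM, Dlx4 2.90 and 2.29, and Sox21 4.77 and 5.08. The 4 relatives under 1 TPM were Sox1 (0.00 and 0.03), Sox3 (0.07 and 0.13), Six6 (0.01 and 0.05) and Emx1 (0.27 and 0.36), all genes of the brain or eye. The relatives Dlx2, Dlx3, Dlx4 and Dlx5 each had less TPM in replicate 2, as did Dlx6 (3.79 and 3.54). Dlx6os1, Dlx1 and Dlx1as had more. The log2 intervals of Dlx6, Dlx1 and Dlx1as given above include 0.

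A list of 32 other long non-coding genes named after developmental factors or known in development had 25 with a row, of which 8 reached 1 TPM in each library and 5 were at 0 in both. Their median of mean TPM was 0.565, against 0.055 for all long non-coding genes and 4.55 for the 5 described here, which were chosen with their levels known. Pantr1, beside the neural factor gene Pou3f3, was the highest with 63.2 and 75.2 TPM, near Hand2os1 in replicate 1 and above it in replicate 2. Tbx3os1 had 17.3 and 13.5 TPM, Fendrr, beside Foxf1, 3.51 and 2.76, and Dlx4os 3.44 and 2.22. Hotairm1 and Hoxd3os1, of the Hox clusters, had 2.48 and 2.59 and 2.52 and 2.82 TPM. Hotairm1 rested on only 17 and 8 expected counts, with wide TPM intervals of 1.41 to 4.61 and 1.35 to 5.32. From scaled counts its log2 ratio was -0.71 (-2.19 to 0.52). Haglr had 1.20 and 2.07 TPM, and Irx3os 1.41 and 1.28.

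The long non-coding genes nearest in level were found by Euclidean distance of log2(TPM + 1) over the 2 libraries. The distance to the nearest genes does not measure how common a pattern is. Few long non-coding genes were as high as Hand2os1, which ranked 37 of 6853 by mean TPM. Hand2os1 had no close match: Gm37750, at 41.0 and 18.6 TPM, lay 0.759 away and Snhg15 1.04. The others had near neighbours, Gm11266 and Gm7160 for Dlx6os1 at 0.028 and 0.056, and 2610020C07Rik and Gm17396 for Dlx1as at 0.039 and 0.046. Gm19918 and Gm20659 lay 0.128 and 0.241 from Six3os1, and Hm629797 and Gm37292 0.051 and 0.066 from Emx2os. With 2 libraries of 1 tissue, this likeness is of level alone.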

How the data were processed

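Total RNA of 2 libraries of embryonic day 13.5 facial prominence was prepared from 10 ng of RNA longer than 200 nt, with spike-ins, per the labels. The replicate 1 library held 30451502 expected counts (28542452 on gene rows) and replicate 2 23777465 (22719352), so that a count of 0 allows 0.105 and 0.132 CPM (3 counts of the gene-row total). Read numbers are the expected counts that the authors deposited, estimates with decimals. The deposited TPM, with spike-in rows, sum to 1000000 per library, and spike-ins took 13.4% and 9.68% of TPM. FPKM, as deposited, divides fragments by length and library total. The bounds of each credibility interval form a deposited signal on the TPM scale. The deposited notes name mm10 and GENCODE M4, while no aligner or quantifier is named in the sources used here. GENCODE M21 (GRCm38) gave names, biotypes, coordinates and splice junction sequences, matched by identifier without version (42462 of 43346 gene rows matched). Promoter sequences came from RefSeq.

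The genes and lists were chosen with earlier results of these data known. Named genes were the 6 long non-coding genes and neighbours, transcripts of 10% or more of a gene, genes within 10 kb at 1 TPM or more in either library, the listed relatives, the listed other long non-coding genes at 1 TPM in both, and the 2 nearest in level. Counts were rounded and scaled with TMM (edgeR 4.0.16, R 4.3.3), with a prior count of 1. Intervals came from scipy 1.17.1 in Python 3.11.15. Spike-in and number-only rows (96 and 26248 of 69691) stayed out of library sizes. Single values of some listed genes are not reported here. The ratio step was tested on simulated data. Alternatives were other thresholds, units, scalings (DESeq2 1.42.0 size factors, totals, spike-ins), prior counts, pseudocounts, windows, transcripts without overlap, and each library alone.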

Additional observations from a re-analysis of the deposited data

How the results depend on the processing

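Detection of the 5 genes held under each alternative tried (5 with either library alone), and the count of pairs with the lower long non-coding gene was 3 with either library alone. That count was 1 (of 4 pairs left) with transcripts that share no exonic base with the partner, and 2 with FPKM and with counts not divided by length. The count of genes past the threshold between libraries, 1 with TMM at 2-fold, was 2 at 1.5-fold and 2 with spike-in counts, when Six3os1 passed on the side of replicate 2. Pairs with both genes past 2-fold were then 2 in place of 1. Spike-in scaling moved the median of all genes from 0.01 to 0.54 on the log2 scale and the split of genes past 2-fold from 881 higher and 235 lower in replicate 2 to 1986 and 84. Signs changed for Dlx6 (0.40 with spike-in counts), for Dlx1as (-0.0083 with DESeq2 size factors and -0.011 with no filter on low counts) and for the Dlx6os1 to Dlx6 ratio (1.57 with counts not divided by length). Of 55 differences between libraries recomputed with another choice, 43 stayed within the spread, 9 moved and 3 changed sign; of 34 pair ratios, 26, 7 and 1. No paired analysis was possible because both libraries belong to 1 group. Depth limits Dlx1as most, with 37.3 and 29.9 expected counts.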
